A study of Rattus norvegicus with 12 samples.

Results

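Primary hepatocytes of Wistar rats, the main metabolic cells of the liver, were compared after 3 h with or without interferon alpha at 250 U/ml. This comparison holds 6 arrays of the 12 in the series: 3 of treated cells and 3 of control cells of the same time, chosen by the treatment, time and replicate number in the sample titles. The other 6 arrays, treated and control cells at 6 h, entered the statistical fit and are set beside the 3 h values where stated. All 4 groups of 3 arrays were cells freed from rat liver with collagenase, purified on a Percoll density gradient and given rat interferon alpha, or left without it, on the day after isolation. The labels name no other treatment of either group, and the age, sex and number of rats are not given in the sources used here. The labels call the arrays of a group biological replicates, without saying whether the cells of each came from another animal, so every p-value below measures the spread between these arrays. Treated and control arrays of the same replicate number were taken as a pair, giving 3 pairs.

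RNA was measured on a whole-genome rat Affymetrix array, on which each transcript is read by 1 or more probe sets. Levels are on the log2 scale of RMA, so that a difference of 1 is a 2-fold change, and 31042 probe sets were tested. Of these, 20826 carried 1 gene symbol, for 14217 genes, and a gene is described here by its brightest probe set unless another is named. The labelled cell type was checked on 14 hepatocyte markers: their mean levels over the 3 h arrays lay between the 85.5th percentile (Pck1, which makes glucose precursors) and the 100th (Alb, albumin) of the 14217 genes. The medians of the 12 arrays ran from 5.16 to 5.21 and correlations between any pair of the 3 h arrays from 0.985 to 0.997. In RNA from many cells, fewer cells of a type and less RNA per cell cannot be told apart, and the number of arrays limits the precision of each value.

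Interferon alpha is a type I interferon, a signal protein that cells release when they meet a virus. It binds a receptor of the subunits Ifnar1 and Ifnar2, whose kinases Jak1 and Tyk2 activate transcription factors in the cytoplasm. A complex that holds Stat2 and Irf9 then binds the interferon-stimulated response element (ISRE) in target genes, and a further element of interferon target genes is known as GAS. Hepatocytes carry this receptor, and the genes it switches on include enzymes, helicases and GTPases that hold back virus growth, and chemokines that call in T cells.

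The promoters of genes that rose at 3 h were read for both elements, because the arrays show which genes answered but not through which site. In RefSeq promoters of the rat assembly GRCr8, the 250 bases before the transcription start were searched on both strands for the ISRE core, GAAA followed after any 2 bases by GAAA, and for the GAS letters TTCNNNGAA, which read the same on either strand. A base may belong to both motifs, but no promoter of a called gene held both. Of the 17 genes called higher at 3 h on any probe set, 14 had a promoter in the table; 4 held the ISRE core (28.6%) and 3 the GAS letters (21.4%), against 2.89% and 6.63% of the 11700 measured genes with a promoter. Over all 33469 promoters of the table the shares were 3.41% and 7.67%. The 4 stretches with the ISRE core follow, 100 bases each, written 5′ to 3′ along the gene's strand, with the matched core in capitals: Cxcl10 (chr14:15988816-15988915, plus strand), Ifit3 (chr1:241527226-241527325, plus strand), Rsad2 (chr6:48788213-48788312, minus strand) and Ifi44 (chr2:243303841-243303940, minus strand).
Cxcl10: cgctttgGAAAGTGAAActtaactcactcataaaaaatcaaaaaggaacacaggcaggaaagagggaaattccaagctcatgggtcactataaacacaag
Ifit3: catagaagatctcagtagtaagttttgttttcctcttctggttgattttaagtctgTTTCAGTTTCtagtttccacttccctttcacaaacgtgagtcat
Rsad2: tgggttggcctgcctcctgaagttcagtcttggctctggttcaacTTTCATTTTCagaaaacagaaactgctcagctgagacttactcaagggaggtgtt
Ifi44: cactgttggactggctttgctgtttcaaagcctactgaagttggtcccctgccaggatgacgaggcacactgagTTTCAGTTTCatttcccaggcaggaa
The 3 stretches with the GAS letters in capitals are those of 2 transcription factor genes of the interferon response, Irf1 (chr10:38417747-38417846, plus strand) and Irf9 (chr15:33065691-33065790, plus strand), and of Mitd1 (chr9:47621107-47621206, minus strand).
Irf1: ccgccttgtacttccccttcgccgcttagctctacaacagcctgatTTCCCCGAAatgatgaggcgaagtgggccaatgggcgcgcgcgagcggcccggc
Irf9: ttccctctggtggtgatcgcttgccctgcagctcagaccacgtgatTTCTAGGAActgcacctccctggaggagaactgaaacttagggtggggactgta
Mitd1: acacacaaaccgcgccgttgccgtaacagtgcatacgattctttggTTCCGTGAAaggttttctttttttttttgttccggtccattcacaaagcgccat
The core began 243 bases before the start in Cxcl10, 147 in Rsad2, 44 in Ifit3 and 26 in Ifi44, and the GAS letters 142 bases before it in Irf1, 127 in Mitd1 and 99 in Irf9. Neither set of letters was found in this window of Ncoa7 (4 promoters), Znfx1, Helz2, Tent5a, Uba7, Dtx3l or Daxx, nor in that of Phrf1, the only named gene called lower. A match is a run of letters and no measured site.

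The early response was one of rises. In the limma fit with the replicate number as a block, 29 of the 31042 probe sets (0.0934%) were called higher in treated cells and 1 (0.00322%) lower, at a Benjamini-Hochberg adjusted p under 0.05. Counted by the brightest probe set of each gene, 15 of 14217 genes (0.106%) rose. Before adjustment, a p under 0.05 was reached by 1094 probe sets in the higher direction and 1000 in the lower. On brightest probe sets 477 of the 14217 genes were higher and 487 lower at that p, the background for the list counts below. The 3 treated arrays lay above all 3 controls for 1405 probe sets (4.53%) and below all of them for 923 (2.97%), and the first held for 24 of the 29 that rose. By pairs, 1912 of the 14217 genes (13.4%) were higher in all 3 and 3441 (24.2%) lower in all 3, and all 30 called probe sets had 1 sign in every pair. At 6 h, for comparison, 329 probe sets (1.06%) were called higher. Without the replicate block limma called 2 probe sets higher (0.00644%), and with the block fitted within each time it called 10 (0.0322%); of the 30 calls, these fits kept 2 and 8. Fitted on the 6 arrays of 3 h alone, it called 1 with the block and 0 without. Leaving out the treated array 2 or 3 or the control array 3 at 3 h left 0 called higher, and leaving out control array 2 left 1, while leaving out treated array 1 gave 81. Leaving out treated 6 h arrays 1 to 3 gave 11, 11 and 16, and leaving out control 6 h array 2 or 3 gave 16 or 13. Of the 30 called probe sets, 20 carried 1 symbol, for 18 genes, 1 carried the symbols of several related GTPases (a rise of 3.19) and 9 were not listed in the annotation (rises of 0.52 to 1.97). An adjusted p of 0.0499, just under the threshold, is shared by 13 of the 30.

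The largest rise was that of Cxcl10, whose protein attracts T cells that carry the receptor Cxcr3. Its levels were 6.65, 6.31 and 6.61 in control arrays 1 to 3 and 10.14, 12.28 and 12.08 in the treated arrays of the same numbers. The controls lay close together and every treated array stood far above them, with treated array 1 the lowest of the 3. The ± values here and below are SEs of the limma fit, whose spread comes from all 12 arrays. They do not measure the spread of the 3 pair differences, which for Cxcl10 had an SD of 1.31. The rise was 4.98 ± 0.49 log2, 31.6-fold, with an adjusted p of 0.00607 (limma). It was also called without the block and with the block within each time (adjusted p = 0.0372 and 0.0215), not on the 3 h arrays alone (0.251 with the block, 0.914 without), and it held in 9 of 15 fits that left out an array or a replicate number. Of the 41 chemokine and cytokine genes measured, Cxcl10 was the only one called, and 7 were higher with an unadjusted p under 0.05 and 1 lower. Cxcl11, which binds the same receptor, differed by 0.35, 2.67 and 1.07 in pairs 1 to 3 (adjusted p = 0.508), and Cxcl9, the remaining chemokine of that receptor, by 0.01 ± 0.07 on average (adjusted p = 0.989). The Cxcl9 probe set was already bright in the controls, at a mean of 10.52, and differed by -0.0005 at 6 h. Whether so bright and even a signal reads Cxcl9 was not tested.

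**Figure D1:**
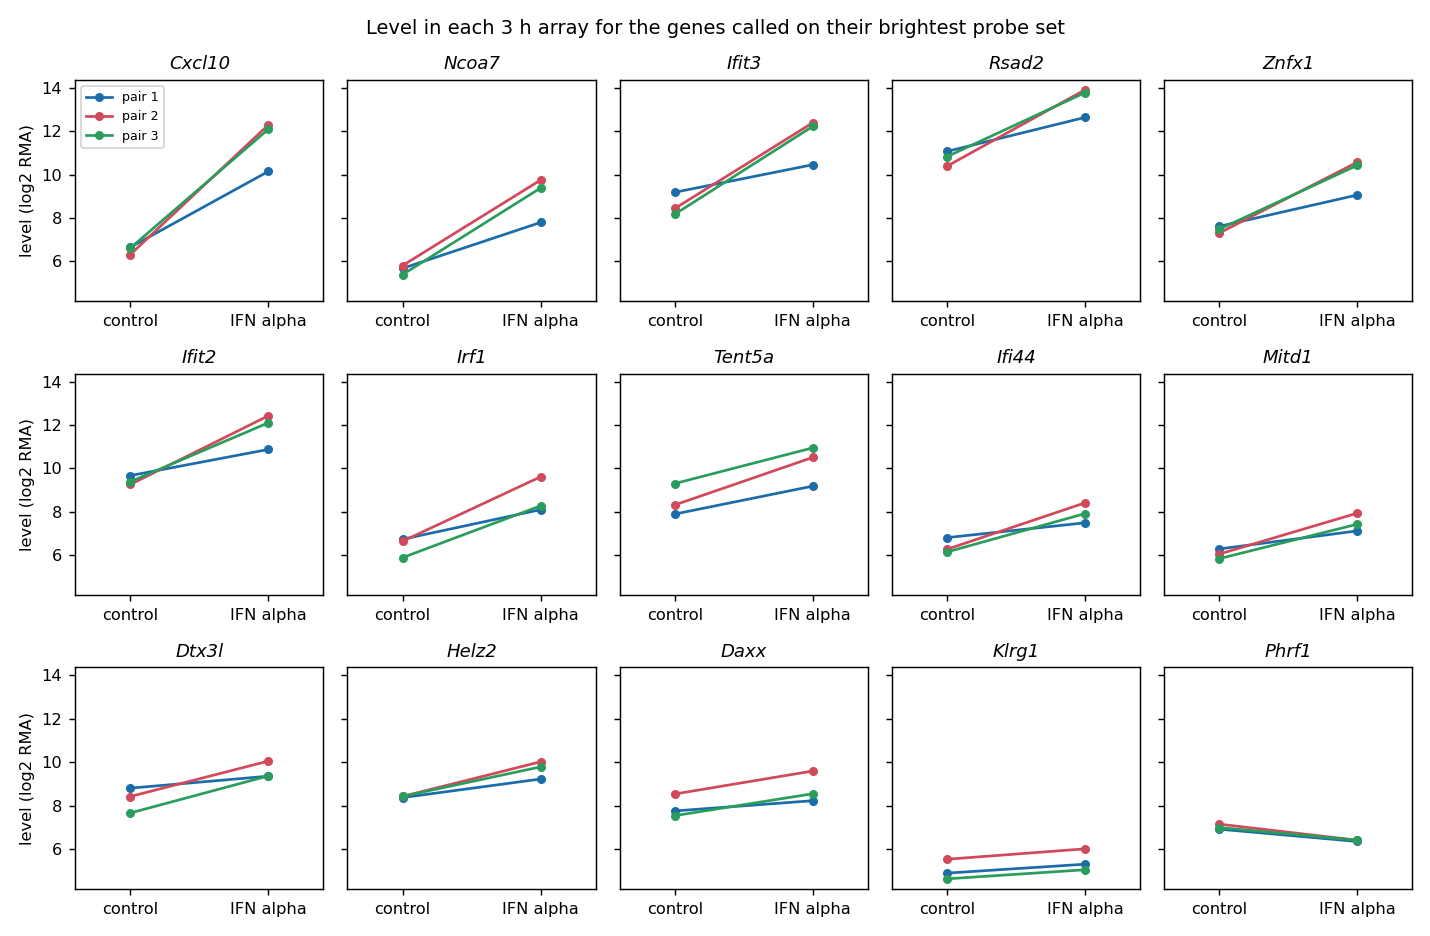
Level of the 15 genes called on their brightest probe set (the gene with a locus name is left out) in each 3 h array, on the log2 RMA scale, with a line joining control and interferon alpha arrays of the same number. Every line rises except those of Phrf1, and the line of pair 1 is the flattest in most panels, as for Cxcl10, from 6.65 to 10.14 against 6.31 to 12.28 in pair 2.

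Among transcription factors, Irf1, which binds ISRE-like sites and acts early in the response, rose. It stood at 6.73, 6.64 and 5.89 in the controls and at 8.09, 9.61 and 8.27 in the treated arrays. The groups did not overlap, and control array 3 was the lowest of its group. The rise was 2.24 ± 0.29 log2, 4.72-fold (adjusted p = 0.0218, limma). Irf9, the DNA-binding partner of Stat2, rose on its dimmer probe set by 0.85 ± 0.13 (adjusted p = 0.0499), and on the brighter one the difference was 0.89 ± 0.16 (adjusted p = 0.114). Irf7, which amplifies interferon production, stood at 10.02, 8.93 and 8.99 in the controls and at 10.77, 11.36 and 11.54 in the treated arrays. Its groups did not overlap, but control array 1 was more than 1 log2 unit above the other controls, and the difference of 1.91 ± 0.34 was not called (adjusted p = 0.0901). Of 7 interferon regulatory factors measured, 1 was called and 4 were higher in all 3 pairs, with a list median of 0.18. Without replicate 1 at both times 3 of them were called, and without replicate 2 or 3, 0.

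The Ifit proteins bind viral RNA together, and Ifit3 and Ifit2 rose. Ifit3 stood at 9.18, 8.44 and 8.17 in the controls and at 10.45, 12.39 and 12.22 after interferon alpha. Treated array 1 lay nearer to control array 1 than to the other treated arrays. The rise was 3.09 ± 0.48 log2, 8.52-fold, and the call was a narrow one (adjusted p = 0.0499, limma), held in 4 of 15 fits that left out an array or a replicate number. Ifit2 stood at 9.67, 9.26 and 9.38 against 10.87, 12.42 and 12.10, a rise of 2.36 ± 0.31 (adjusted p = 0.0218), and its second probe set rose by 2.70 ± 0.33 (adjusted p = 0.0184). Both probe sets thus gave a call in the same direction. Ifit1, the founding member of the family, differed by 1.04, 3.21 and 0.18 in pairs 1 to 3, with the smallest value in pair 3, and was not called (adjusted p = 0.696).

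Rsad2 (viperin) makes a modified nucleotide that stops viral RNA synthesis, and Cmpk2 is a nucleotide kinase encoded beside it. Rsad2 was already bright in the controls, at 11.06, 10.38 and 10.83, and reached 12.63, 13.90 and 13.77. The groups were apart in all arrays, and the rise was 2.68 ± 0.33 log2, 6.40-fold (adjusted p = 0.0184, limma). Cmpk2 stood at 8.17, 7.32 and 7.03 in the controls and at 9.09, 11.35 and 10.72 in the treated arrays. Its mean difference, 2.88 ± 0.50, was larger than that of Rsad2, but it varied from 0.92 in pair 1 to 4.03 in pair 2 and was not called (adjusted p = 0.0865). The second Cmpk2 probe set gave 2.95 ± 0.52 (adjusted p = 0.0901).

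The helicases Znfx1 and Helz2 both rose, with groups that did not overlap. Znfx1, which binds double-stranded RNA, went from 7.61, 7.30 and 7.48 to 9.06, 10.57 and 10.43, a rise of 2.55 ± 0.29 log2, 5.86-fold (adjusted p = 0.0147, limma). Helz2, a helicase first known as a coactivator of nuclear receptors, stood at 8.37, 8.42 and 8.42 in the controls, the tightest control group of the genes named here with a call, and at 9.22, 10.01 and 9.78 in the treated arrays. Its rise of 1.27 ± 0.13 (2.41-fold) was far smaller than that of Cxcl10 and had nearly as low an adjusted p, 0.00773. The RNA sensor Ifih1 (Mda5) differed by 0.24, 1.41 and 1.09 in pairs 1 to 3, and the sensor Dhx58 by 0.21, 0.72 and 0.89. Neither was called (adjusted p = 0.271 and 0.447), and of 13 sensors and adaptors measured 0 were called, with 4 higher and 0 lower before adjustment, at p under 0.05.

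Ncoa7, whose short interferon-induced form limits entry of viruses through endosomes, had the second largest rise. Its levels were 5.68, 5.80 and 5.39 in the controls and 7.79, 9.74 and 9.38 in the treated arrays. Every treated array was at least 4-fold above its own control, since the pairs differed by 2.12, 3.94 and 3.99. The rise was 3.35 ± 0.40 log2, 10.2-fold (adjusted p = 0.0174, limma), and the second Ncoa7 probe set rose by 2.66 ± 0.38 (adjusted p = 0.0403). Tent5a, a poly(A) polymerase that lengthens RNA tails, went from 7.89, 8.31 and 9.30 to 9.18, 10.50 and 10.94. Its groups overlapped, since control array 3 was above treated array 1, yet each pair rose by a like amount, 1.29, 2.19 and 1.64. The rise was 1.71 ± 0.24 (adjusted p = 0.0375), and the 2 other Tent5a probe sets, at 0.59 and 1.25, were not called.

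Smaller rises were called for Ifi44, Mitd1, Dtx3l and Daxx. Ifi44, an interferon-induced cytoplasmic protein, went from 6.81, 6.27 and 6.14 to 7.49, 8.41 and 7.91, a rise of 1.53 ± 0.24 log2 (adjusted p = 0.0499, limma). Mitd1, a protein of the last step of cell division, went from 6.28, 6.05 and 5.84 to 7.12, 7.93 and 7.42, a rise of 1.43 ± 0.19 (adjusted p = 0.0260). Neither gene's groups overlapped, and the treated array nearest to the controls was array 1 in both. Dtx3l, a ubiquitin ligase that works with Parp9, stood at 8.80, 8.42 and 7.66 against 9.35, 10.05 and 9.36, a rise of 1.30 ± 0.19 (adjusted p = 0.0499). Daxx, a histone chaperone and regulator of cell death, stood at 7.75, 8.53 and 7.53 against 8.22, 9.59 and 8.54, a rise of 0.85 ± 0.13 (adjusted p = 0.0499). The Daxx groups overlapped because replicate 2 was high in both, while the pairs rose by 0.47, 1.06 and 1.01.

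The call on Klrg1 and the call on Phrf1 stand apart from the others in size and direction. Klrg1, a receptor of natural killer and T cells, had low levels of 4.89, 5.53 and 4.62 in the controls and 5.30, 6.00 and 5.04 in the treated arrays. The groups overlapped, and the pairs differed by 0.41, 0.48 and 0.42, a rise of 0.44 ± 0.07 log2 (adjusted p = 0.0499, limma). It was called in 0 of 7 alternative fits and in 0 of 15 with an array or a replicate number left out, and of 16 lymphocyte and natural killer cell markers measured, 0 were called (2 higher and 0 lower before adjustment, at p under 0.05). Phrf1, a ubiquitin ligase with PHD and RING fingers, stood at 6.91, 7.14 and 6.98 in the controls and at 6.34, 6.40 and 6.40 in the treated arrays. All 3 treated arrays lay below the controls and close to each other, and the gene fell by 0.63 ± 0.10 (adjusted p = 0.0499), a call held in 2 of 15 fits with an array or a replicate number left out.

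ISG15 is a small protein that interferon-treated cells attach to other proteins, with Uba7 as the activating enzyme and Usp18 as the enzyme that removes it and dampens the receptor. Isg15 stood at 11.76, 10.71 and 10.90 in the controls and at 12.29, 13.15 and 12.89 in the treated arrays. The groups did not overlap, but control array 1 was the highest control and treated array 1 the lowest treated one, and the difference of 1.66 ± 0.32 log2 was not called (adjusted p = 0.145, limma). Usp18 stood at 10.75, 9.65 and 9.65 against 10.88, 11.04 and 11.07, so that pair 1 differed by 0.14 and the other pairs by 1.39 and 1.41 (adjusted p = 0.550). Uba7 rose on a dimmer probe set by 1.46 (adjusted p = 0.0499), and its brightest probe set differed by 0.89 ± 0.22 (adjusted p = 0.349). By brightest probe set 0 of 6 genes of the list were called, all 6 were higher in every pair and at an unadjusted p under 0.05, and the list median was 0.93. Without replicate 1, 3 of the 6 were called.

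Guanylate-binding proteins and their immunity-related kin are GTPases that act on the vacuoles in which microbes live. The largest difference of the list was that of Ifgga2l1, an interferon-inducible GTPase, which stood at 10.26, 9.21 and 8.25 in the controls and at 11.08, 12.44 and 11.81 in the treated arrays. The groups were apart, the controls were spread over about 2 log2 units, and the difference of 2.54 ± 0.41 was just outside the threshold (adjusted p = 0.0584, limma). Irgm differed by 1.58 ± 0.25 (adjusted p = 0.0521), Gbp7 by 1.55 ± 0.41 and Gbp2 by 1.21 ± 0.28. Of 8 genes measured 0 were called, 7 were higher in all 3 pairs and at an unadjusted p under 0.05, and 1, Irgq, was lower in all pairs and at that p. The list median was 1.21, and without replicate 1 limma called 5 of the 8.

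Mx1 and Mx2 are dynamin-like GTPases that block viruses, and Mx1 was the last of the 10 named genes with the largest mean difference. It was dim in the controls, at 4.57, 3.74 and 3.71, of which the last 2 lie below the lower quartiles of the 3 h arrays (3.84 to 3.92), and stood at 5.44, 6.69 and 5.63 after interferon alpha. No array of one group reached the other, and the difference of 1.91 ± 0.37 log2 was not called (adjusted p = 0.145, limma). Mx2 was brighter and differed by 0.22, 1.81 and 1.55 in pairs 1 to 3 (adjusted p = 0.359). How much of so dim a signal is background cannot be read from these values, which limits the fold of Mx1.

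Over all 46 antiviral effector genes measured, 8 rose and 0 fell, 37 were higher in every pair and 34 were higher at an unadjusted p under 0.05. The list median was 0.82, against -0.02 for all genes. Of all 14217 genes, 15 rose and 1 fell, 1912 (13.4%) were higher in every pair and 477 were higher at that p. Without replicate 1 at both times 26 of the 46 were called, and without replicate 2 or 3, 0. The members with a call were Ncoa7, Ifit3, Rsad2, Znfx1, Ifit2, Ifi44, Dtx3l and Helz2. Without a call, Rtp4, a receptor-transporting protein, differed by 1.79 ± 0.30 (adjusted p = 0.0700), Oasl, a relative of the oligoadenylate synthetases, by 1.60 ± 0.34 (adjusted p = 0.211) and Eif2ak2, the kinase PKR that stops protein synthesis, by 1.02 ± 0.20 (adjusted p = 0.152). At the other end, Epsti1, Ifi27, Ifitm1, Ifitm2, Slfn5 and Sp100 differed by less than 0.1 on average in either direction. Single pairs could differ by more, as for Slfn5 at 0.18, -0.27 and 0.14. Epsti1 and Slfn5 had control means of 3.25 and 3.65, below the lower quartiles of the 3 h arrays. Ifitm1 and Ifitm2 were little brighter, at 4.24 and 4.62. So dim a signal limits what these differences show.

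Signal transducers and feedback inhibitors did not pass the test on their brightest probe sets. Of 14 receptor and JAK-STAT genes measured 0 were called on the brightest probe set, 2 were higher with an unadjusted p under 0.05 and 1 lower, and the median was -0.02. Stat2 differed by 0.57 ± 0.19 log2 (adjusted p = 0.599, limma), Jak1 by -0.12, Tyk2 by -0.06, Ifnar1 by -0.19 and Ifnar2 by -0.01. Of 14 feedback inhibitors 0 were called, with 1 higher and 1 lower at that p. Socs1 and Socs3, which block the kinases, differed by 0.17 ± 0.09 and -0.02 ± 0.13, and a dimmer Socs1 probe set by 0.42, 1.92 and 0.85 in pairs 1 to 3 (adjusted p = 0.391). The largest difference of the list was that of Usp18, at 0.98.

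Some antigen presentation genes, such as Tap1 and Nlrc5, had differences of uneven size between the pairs. The proteasome subunit Psmb10 differed evenly, by 0.14, 0.16 and 0.17. Of 23 MHC class I and processing genes 0 were called, 8 were higher with an unadjusted p under 0.05 and 0 lower, 15 were higher in all pairs, and the median was 0.16. Tap1, a peptide transporter subunit, differed by 0.23, 1.64 and 1.32 in pairs 1 to 3 (adjusted p = 0.316, limma), and Nlrc5, the activator of class I genes, by 0.03, 1.25 and 0.61 (adjusted p = 0.622). A dimmer Tap1 probe set differed by 0.30, 0.41 and 0.37 (adjusted p = 0.338). B2m, the light chain, stayed between 13.76 and 13.84 in all 6 arrays, a difference of 0.02 ± 0.06. The proteasome subunit Psmb9 differed by 0.51 ± 0.17 (adjusted p = 0.606), and of 30 constitutive proteasome genes 0 were called (0 higher and 1 lower before adjustment, at p under 0.05).

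Among death genes, 1 of 30 was called, Daxx. Tnfsf10 (TRAIL), a death ligand, differed by 0.57, 2.84 and 1.77 in pairs 1 to 3 from a control mean of 3.58, below the lower quartiles of the arrays, and was not called (adjusted p = 0.211, limma). Pml, the scaffold of the nuclear bodies that hold Daxx, differed by 1.03 ± 0.19 (adjusted p = 0.112) and Casp8, an initiator caspase, by 0.66 ± 0.14 (adjusted p = 0.211). Of the 24 NF-kB response genes 0 were called (1 higher and 1 lower before adjustment, at p under 0.05), and of 26 immediate early genes 0 (2 higher and 5 lower). Over all 14217 genes, 477 were higher and 487 lower at that p. The immediate early gene with the largest difference of one sign in all pairs was Zfp36, which speeds the decay of cytokine messages, at 0.45 ± 0.15 (adjusted p = 0.606).

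Genes of hepatocyte function did not pass the test at 3 h. Among 18 hepatocyte transcription factors 0 were called (1 higher and 2 lower before adjustment, at p under 0.05) and the median was -0.10. At that p 477 of all 14217 genes were higher and 487 lower. Foxa3 differed by -0.18, -0.62 and -0.24 in pairs 1 to 3 (adjusted p = 0.758, limma) and Hnf4a by 0.09 ± 0.09. Among 35 cytochromes P450 0 were called (2 higher and 0 lower at that p), and Cyp2e1 differed by 0.01 ± 0.06 from a level near 13.8. Of 20 acute phase, 21 complement, 21 heat shock and unfolded protein and 19 cholesterol genes, 0 were called, and at an unadjusted p under 0.05 the complement list had 1 higher and 1 lower and the 3 others none.

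**Figure D2:**
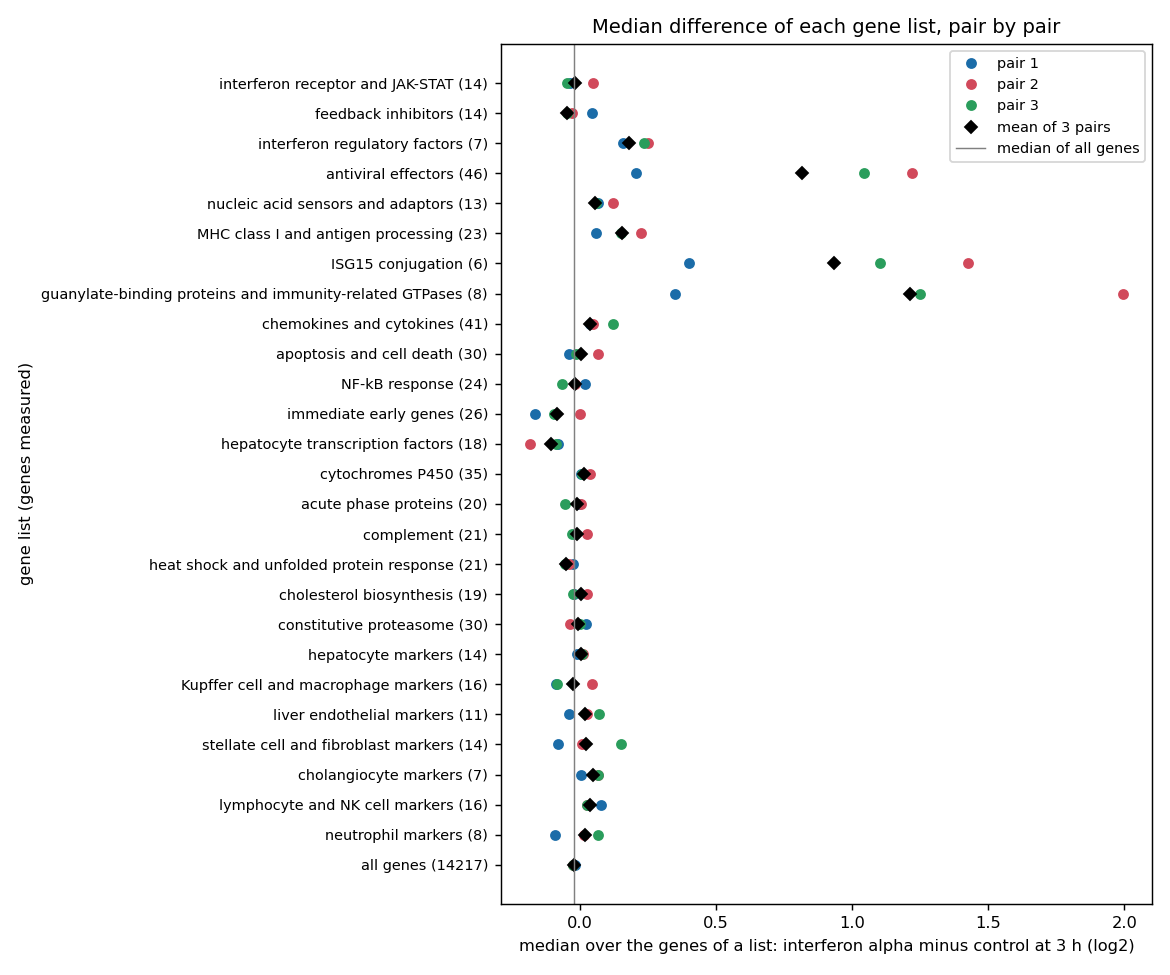
Median difference between interferon alpha and control at 3 h (log2) over the measured genes of each list, for pairs 1 to 3 and for their mean (diamond), with the number of genes in brackets and a line at the median of all genes. The antiviral, ISG15 and GTPase lists stand apart to the right with pair 1 at 0.21, 0.40 and 0.35 and pair 2 at 1.22, 1.43 and 1.99, and the other lists lie near the line.

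The order of size fell off quickly. On brightest probe sets, 44 named genes were at least 2-fold higher in the mean of the 3 pairs and 0 were at least 2-fold lower; all 44 were higher in every pair and 13 of them were called. At 2 log2 units or more there were 10 genes (8 called), at 3 or more 4 genes (4 called), and at 4 or more Cxcl10 alone. The 4 genes above 3 log2 units were Cxcl10, Ncoa7, Ifit3 and RGD1309362, a gene with a locus name that rose by 3.03. The share called was thus higher among larger rises, with 2 exceptions above 2 log2 units: Cmpk2 and Ifgga2l1 were larger than Irf1 without a call, and both had a pair 1 under 1 log2 unit. The largest fall in the mean, that of Zfp36l2, which promotes decay of AU-rich messages, was -0.67, -1.17 and -0.44 in pairs 1 to 3 and was not called (adjusted p = 0.585, limma). Neighbours in the order, such as Rsad2, Znfx1 and Ifgga2l1 at 2.68, 2.55 and 2.54, differed by less than their standard errors of 0.29 to 0.41.

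**Figure D3:**
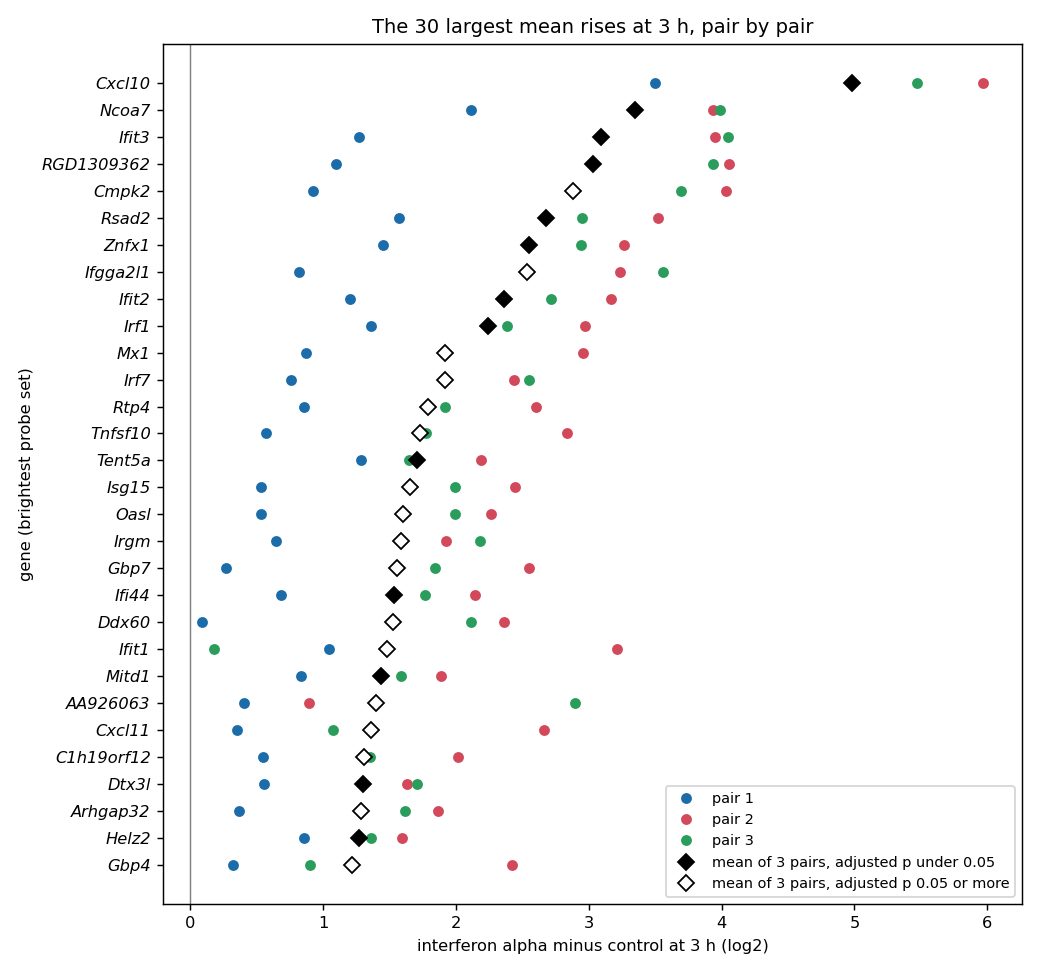
The 30 genes with the largest mean rise at 3 h on their brightest probe set, with the difference between interferon alpha and control (log2) in each pair and the mean as a diamond, filled where the adjusted p was under 0.05. Pair 1 lies to the left in nearly every row, and Cxcl10 leads with 3.49, 5.97 and 5.47.

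The 3 pairs agreed on most of the 20 largest rises, pair 1 less so at 50 genes, and not on how far genes rose. Cxcl10 had the largest difference in each pair. Of the 20 genes with the largest rise in each pair, pairs 1 and 2 shared 14, pairs 1 and 3 shared 13 and pairs 2 and 3 shared 17, and 13 genes were in all 3 lists. These were Cmpk2, Cxcl10, Ifgga2l1, Ifit2, Ifit3, Irf1, Irf7, Mx1, Ncoa7, RGD1309362, Rsad2, Rtp4 and Znfx1. Among the 20 largest falls of each pair, by contrast, 0 genes were in all 3 lists, and 1, 0 and 1 were shared by pairs 1 and 2, 1 and 3, and 2 and 3. At 50 genes per list, pairs 1 and 2 shared 21 rises, pairs 1 and 3 shared 20 and pairs 2 and 3 shared 39. Common to all pairs at that length were 19 rises and 1 fall.

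Each pair was then set against genes chosen without it. Of the 50 genes with the largest mean rise in the other pairs, 50 were higher in pair 1, 50 in pair 2 and 50 in pair 3, where 44.4%, 43.4% and 43.2% of all genes were higher. The size did not carry over equally. The 50 genes chosen on pairs 2 and 3 had a median of 1.72 there and 0.50 in pair 1, where 10 of them were at least 2-fold higher. Those chosen on pairs 1 and 3 had a median of 1.02 there and 1.86 in pair 2 (45 at least 2-fold), and those chosen on pairs 1 and 2 had 1.25 there and 1.55 in pair 3 (38 at least 2-fold). For the 50 largest falls, 39, 36 and 41 were lower in the pair left out, where 55.5%, 56.6% and 56.6% of all genes were lower, and their medians there were -0.15, -0.21 and -0.18.

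Pair 1 gave the smallest difference in 26 of the 29 probe sets that rose. Pair 2 gave the largest in 19 and pair 3 in 8. The median of the 29 was 0.99 in pair 1, 2.14 in pair 2 and 1.71 in pair 3, and the median ratio of pair 1 to the mean of the other pairs, taken on log2 differences, was 0.485. Over all probe sets 17 were at least 2-fold higher in pair 1, 132 in pair 2 and 101 in pair 3, and 2, 3 and 0 were at least 2-fold lower. Across 31042 probe sets, which are not independent replicates and share the arrays of their pair, the differences correlated at r = 0.476 (rho 0.241) between pairs 2 and 3, 0.249 (0.176) between 1 and 3 and 0.197 (0.101) between 1 and 2.

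**Figure D4:**
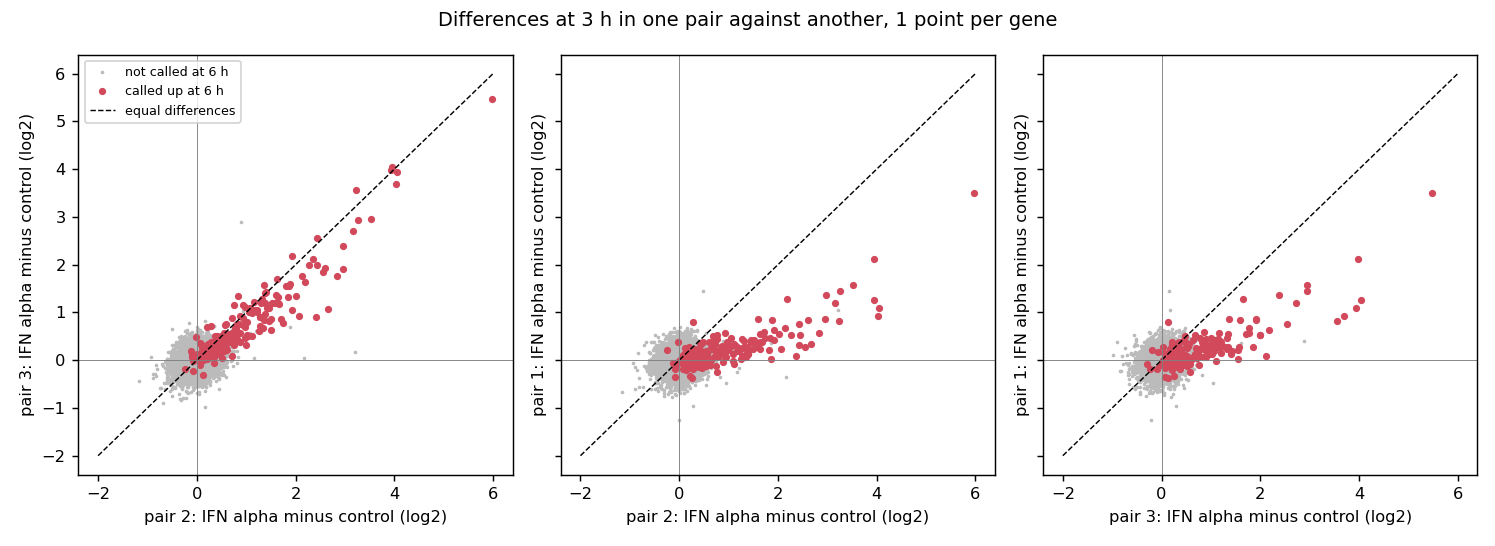
Difference between interferon alpha and control at 3 h (log2) in one pair against another, 1 point per gene on its brightest probe set, with genes called higher at 6 h in colour and a line of equal differences. Pairs 2 and 3 lie along the line, and against either of them pair 1 falls below it, as for Cxcl10 at 3.49 against 5.97 and 5.47.

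In the median of a list of interferon genes, each array of pair 1 stood at the end of its group nearest the other group. The 206 genes called higher at 6 h, on arrays that the 3 h comparison does not contain, were used as a list of interferon genes chosen without the 3 h values, though through 1 fit that shares its spread. Their median level was 8.12, 7.98 and 7.87 in control arrays 1 to 3 and 8.22, 8.83 and 8.65 in the treated arrays. Control array 1 was thus the highest control and treated array 1 the lowest treated array. Gene by gene, control array 1 was the highest control for 104 of the 206 (50.5%, against 30.6% of all genes) and treated array 1 the lowest treated array for 135 (65.5%, against 31.1%). In pairs 1, 2 and 3, 155, 197 and 200 of them were higher after interferon alpha, with medians of 0.14, 0.59 and 0.46.

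Markers of another liver cell moved with the replicate number. Of 16 markers of Kupffer cells and other macrophages, the resident phagocytes of the liver, 14 (87.5%) were higher in both 3 h arrays of replicate 1 than in the other 4, against 11.8% of all genes. Their mean level was 6.47 and 6.36 in control and treated array 1, 5.41 and 5.44 in replicate 2, and 5.64 and 5.59 in replicate 3. C1qb, a complement subunit made by macrophages, stood at 7.28 and 7.58 in replicate 1 and between 5.47 and 5.91 elsewhere, and Clec4f, a Kupffer cell lectin, at 6.64 and 6.55 against 5.02 to 5.65. The markers differed little between treated and control cells: 0 of 16 were called (1 higher and 2 lower before adjustment, at p under 0.05), with a median of -0.03, and summed levels ran from 86.6 to 104 in the controls and from 87.1 to 102 in the treated arrays. The counts of markers above in both replicate 1 arrays were 4 of 11 for endothelial, 4 of 8 for neutrophil, 3 of 14 for stellate, 3 of 14 for hepatocyte, 1 of 7 for cholangiocyte and 1 of 16 for lymphocyte markers. Whether these cells have a part in the smaller differences of pair 1 was not tested. Leaving out replicate 1 at both times, limma called 111 probe sets higher at 3 h, and leaving out replicate 2 or replicate 3 it called 0. Of the 30 calls, counted in either direction, 23 were kept without replicate 1.

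Beside the arrays at 6 h, the 3 h response was mostly the smaller one. Of the 30 probe sets called at 3 h, 24 were called at 6 h too, and the 206 genes called higher at 6 h had a median of 0.99 at 6 h and 0.38 at 3 h. These 206 were chosen on their 6 h values, which favours a larger median at 6 h and few genes larger at 3 h. The next set was chosen on 3 h values, which favours 3 h instead. The 44 genes at least 2-fold higher at 3 h were higher in every 6 h pair, 40 of them were called there, and 40 were larger at 6 h, with a median of 2.61 against 1.46. Pair 1 was again the smallest in 35 of the 44 at 6 h, against 43 at 3 h, with 6 h medians of 2.07, 3.03 and 2.89. Among the 15 genes called higher at 3 h, it was the smallest in 15 at 3 h and in 9 at 6 h. The 6 h medians of these 15 were 2.21, 2.95 and 2.65 in pairs 1 to 3. For the difference between the times limma called 0 probe sets (before adjustment, 618 larger and 848 smaller at 3 h with a p under 0.05), and without replicate 1 it called 18, all smaller at 3 h. Of the 206 genes 3 were larger at 3 h: Cxcl10 (4.98 against 4.36), Ncoa7 (3.35 against 2.61) and Irf1 (2.24 against 2.22), none of which passed the test of the difference (adjusted p = 0.999 for each). Genes not called at 6 h fall outside the 206, such as Arhgap32 with 1.28 at 3 h and 1.19 at 6 h. Ddx60, a helicase tied to RNA sensing, had the opposite pattern at 1.52 and 4.26, and Mx1 stood at 1.91 and 4.33; neither difference was called.

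**Figure D5:**
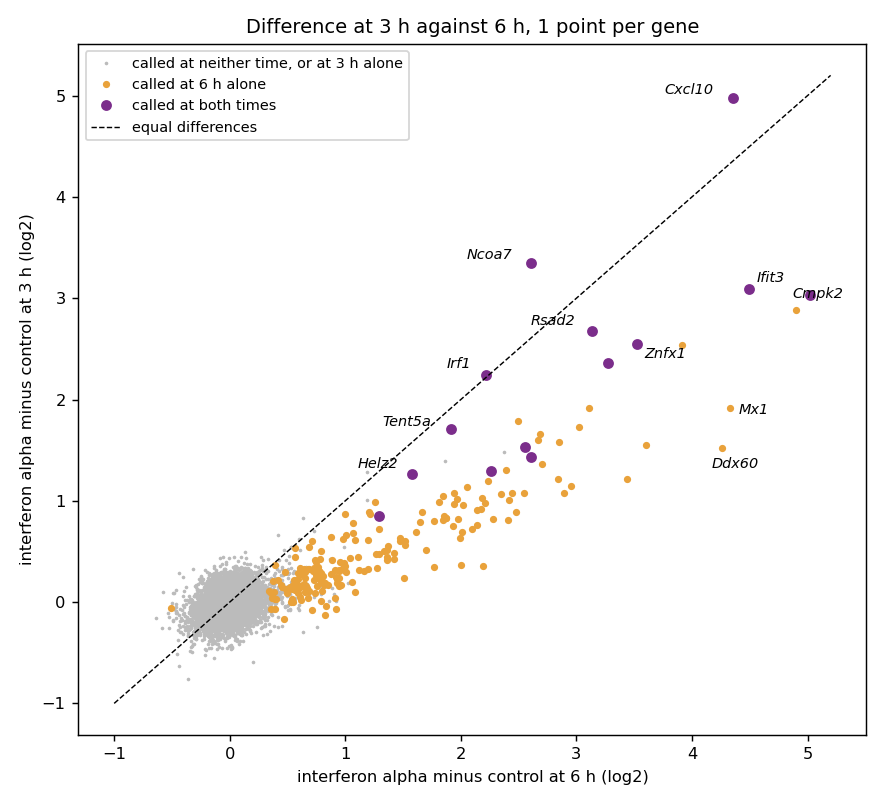
Difference between interferon alpha and control at 3 h against that at 6 h (log2), 1 point per gene on its brightest probe set, coloured by the times at which it was called, with a line of equal differences. Most coloured points, all of them genes called at 6 h, lie below the line, and Cxcl10 (4.98 against 4.36) and Ncoa7 (3.35 against 2.61) lie above it.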

How the data were processed

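The authors deposited log2 expression values, 1 per probe set and array; the submitters' processing notes name RMA, affy and R 2.10.0. RMA includes quantile normalization, which removes any change common to most transcripts. Which probe set definition file was used is not stated in the labels. The 57 control probe sets were left out. Gene symbols came from the platform annotation (20826 probe sets with 1 symbol, 436 with several, 9780 unlisted), of which 20758 were matched to RefSeq genes of GRCr8 with 0 symbols changed. Of the 14217 genes, 4525 had more than 1 probe set.

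Differences were tested with limma 3.58.1 under R 4.3.3 (lmFit, then eBayes, two-sided) over all 12 arrays, with 4 groups and the replicate number as a block (6 residual degrees of freedom), and Benjamini-Hochberg adjustment over 31042 probe sets. The pairing comes from the replicate numbers in the titles, which are not stated to mark a shared animal or day. As a check, deviations from the group mean correlated at 0.675 to 0.829 between same-number arrays at 3 h and at 0.479 to 0.736 between same-number arrays of different times, against -0.562 to -0.0747 between different numbers of different groups. Deviations within a group cancel out, so positive values between same numbers force negative ones on balance between different numbers. The negative values are thus no separate evidence. The named genes are the called genes on their brightest probe set, the 10 largest mean rises and, per list, up to 4 called members or else the largest difference of one sign in all pairs and the brightest member, leaving out symbols that start with LOC or RGD. Other genes named were chosen after their values were seen. The genes, the 26 lists and the tests were chosen with earlier results of these data known, so patterns already seen there have no independent support here. Alternatives are given in the closing section.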

Additional observations from a re-analysis of the deposited data

Results flagged for a closer look

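Results were marked here where every pair moved one way at 3 h and every pair the opposite way at 6 h, or where the test of the difference between the times passed. No named gene passed that test. Klrg1 differed by 0.41, 0.48 and 0.42 in pairs 1 to 3 at 3 h and by -0.04, -0.17 and -0.03 at 6 h, a difference between the times of 0.52 ± 0.10 log2 (adjusted p = 0.462 in the limma fit). Ddit3, a transcription factor of the unfolded protein response, differed by -0.16, -0.21 and -0.19 at 3 h and by 0.02, 0.30 and 0.11 at 6 h, a difference between the times of -0.33 ± 0.14 (adjusted p = 0.999). Neither was called.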

How the results depend on the processing

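No called named gene changed its direction under the alternatives run. For most alternatives this was fixed in advance. In this balanced design the block, limma-trend, the 3 h arrays alone and leaving out dim probe sets do not change the estimates. Only centring the arrays and leaving arrays out could change a direction. The count of probe sets called higher at 3 h, 29 with the replicate block, was 2 with no replicate block, 10 with the block within each time, 1 and 0 on the 3 h arrays alone with and without the block, 69 with limma-trend and 13 with dim probe sets left out. The 1 probe set called lower became 0 in the first 4 of these and with dim probe sets left out, and 2 with limma-trend or with arrays centred on their median. On the 3 h arrays alone without the block, 521 probe sets in the higher and 231 in the lower direction had an unadjusted p under 0.05. Without the replicate block 0 members of the antiviral, regulatory factor and apoptosis lists were called. No other list's count moved there by over 1.5 times. The block cannot change a list's median in this balanced design. Leaving out 1 array or 1 replicate number gave 0 to 111 probe sets called higher and 0 to 2 lower at 3 h, and 0 to 18 called smaller at 3 h than at 6 h. Leaving out 1 replicate number gave 0 to 26 called antiviral genes, 0 to 3 regulatory factors, 0 to 3 sensors, 0 to 3 ISG15 genes, 0 to 5 GTPases, 0 to 4 apoptosis genes, 0 to 2 chemokines, 0 to 2 JAK-STAT genes, 0 to 1 feedback inhibitors and 0 to 1 MHC genes, each highest without replicate 1. In the same fits the list medians with the widest ranges were those of the GTPases (0.83 to 1.62), ISG15 genes (0.76 to 1.27) and antiviral genes (0.63 to 1.11). Medians ran from 0.15 to 0.24 for regulatory factors, from 0.063 to 0.12 for sensors and from -0.050 to 0.024 for cholesterol genes. They ran from 0.038 to 0.085 for lymphocyte and from -0.046 to 0.12 for neutrophil genes. Of the 100 genes with the largest rise in the other pairs, 92%, 96% and 99% were higher in pairs 1, 2 and 3. The cause of these changes was not tested. Fits with arrays left out have fewer residual degrees of freedom, both where the count rose and where it fell. The adjusted p of Cxcl10 ran from 0.000230 to 0.914 over the 7 alternatives. Signal near background limits dim genes such as Mx1 and Tnfsf10. Klrg1 was brighter, at a control mean of 5.01, though below the array medians of 5.16 to 5.21.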
